A study of Mus musculus with 7 samples.

Results

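Cish, Socs1 and Socs3 encode 3 brakes on cytokine signalling, and BRG1 binding around each of them was followed through T helper differentiation and activation. BRG1 is the motor subunit of SWI/SNF complexes, which use ATP to move nucleosomes. The genes were taken as fixed mm9 intervals that were set by position, not by read counts: 40 kb at Cish (chr9:107180001-107220000), 40 kb at Socs1 (chr16:10765001-10805000) and 45 kb at Socs3 (chr11:117805001-117850000). They hold 625 windows of 200 bp, of 13194696 over the whole genome.

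Each of 6 BRG1 chromatin immunoprecipitation libraries came from Balb/C mouse CD4+ T cells, with the J1 antibody, and 1 input library of pooled CD4+ T cell DNA had no immunoprecipitation. Naive CD4+CD62L+ cells came straight from spleens and lymph nodes of mice aged 4 to 6 weeks and were 95% pure. Th1 cells were grown from them on plate-bound anti-CD3 (1 µg/ml) and anti-CD28 (2 µg/ml) with IL-12 at 1 ng/ml and anti-IL-4 at 10 µg/ml. Th2 cells had the same coated plates with IL-4 at 10 ng/ml and anti-IFNγ at 10 µg/ml, and both cultures received IL-2 at 100 U/ml. Th17 cells had soluble anti-CD3 (4 µg/ml) and anti-CD28 (1 µg/ml), both blocking antibodies at 10 µg/ml, and, in ng/ml, IL-6 (100), IL-1β (10), TGF-β (1) and later IL-23 (10), with no IL-2 listed. Stimulated Th1, Th2 and Th17 libraries came from such effector cells after 1.5 h in PMA (50 ng/ml) and ionomycin (500 ng/ml), which together mimic antigen receptor signalling. Resting Th1 and Th2 cells did not get that treatment, and resting Th17 cells were not analysed here. Every group has 1 library, so a ratio compares 2 libraries and has no check by replicates and carries no p-value, and 95% intervals cover counting error only, PCR copies not being independent molecules. The labelled cell types could not be checked against expressed markers, since only BRG1 binding was measured.

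The SOCS proteins close a feedback loop. Cytokine receptors activate JAK kinases, JAKs phosphorylate STAT transcription factors, and STATs switch on SOCS genes, whose products then dampen the same receptors. All members carry an SH2 domain that binds phosphotyrosine and a SOCS box that recruits a ubiquitin ligase. CIS, the product of Cish, is a classic STAT5 target downstream of IL-2 and binds activated receptors. SOCS1 and SOCS3 also block JAK activity directly. SOCS1 is best known for restraining interferon-γ and γ-chain cytokine signals, and SOCS3 for restraining IL-6 and IL-12 receptors.

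The promoter sequences are shown because STAT sites in them are the textbook link between cytokine receptors and these genes. They are RefSeq sequences of build GRCm38.p6, read 5′ to 3′ on the gene's strand, and cover the 250 bases before the annotated start of Cish (chr9:107296409-107296658, plus strand), Socs1 (chr16:10785537-10785786, minus strand) and Socs3 (chr11:117969367-117969616, minus strand). Those positions belong to GRCm38.p6 and cannot be set against the mm9 positions of the reads. Capitals mark the motif TTCNNNGAA, to which STAT dimers can bind (the GAS motif), and GGGCGG or its reverse complement CCGCCC (the SP1 motif).
Cish: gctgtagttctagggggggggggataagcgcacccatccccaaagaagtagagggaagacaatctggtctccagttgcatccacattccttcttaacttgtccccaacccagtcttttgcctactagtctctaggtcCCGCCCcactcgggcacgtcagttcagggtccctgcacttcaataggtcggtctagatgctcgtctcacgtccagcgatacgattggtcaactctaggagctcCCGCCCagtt
Socs1: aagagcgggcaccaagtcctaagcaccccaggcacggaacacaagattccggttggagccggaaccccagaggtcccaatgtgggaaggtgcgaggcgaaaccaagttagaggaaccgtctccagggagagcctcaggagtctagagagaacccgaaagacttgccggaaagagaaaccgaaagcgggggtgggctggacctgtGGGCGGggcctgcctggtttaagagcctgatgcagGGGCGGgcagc
Socs3: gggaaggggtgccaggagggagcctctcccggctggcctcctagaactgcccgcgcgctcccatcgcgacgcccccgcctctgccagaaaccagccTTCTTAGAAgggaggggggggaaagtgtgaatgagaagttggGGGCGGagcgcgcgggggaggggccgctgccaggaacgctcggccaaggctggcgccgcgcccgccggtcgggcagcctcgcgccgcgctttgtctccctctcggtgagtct

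The 3 promoters differ in GAS motifs. Cish has none in the 250 bases shown and a tandem pair within the first bases after its annotated start, with the 9-base matches beginning at positions 1 and 12.
Cish, tandem pair: ttTTCCTGGAAagTTCTTGGAAat
Socs3 has 1 match, beginning 154 bases before its start, and the Socs1 window of 300 bases has no match. Of 32851 RefSeq promoter windows of 300 bases, 8.30% hold at least 1 GAS match on either strand and 0.457% hold 2 or more. SP1 matches stand in all 3 windows, as in 35.7% of all windows. TGANTCA, the AP-1 motif, and TGACGTCA, the CRE motif, match in none of the 3, against 7.81% and 1.79% of all windows. Of the 8 SOCS family genes listed, 4 matched the table (Cish, Socs1, Socs3 and Socs4), and 2 of these 4 hold a GAS match. Socs2, Socs5, Socs6 and Socs7 had no entry. Of 10 other JAK and STAT genes with an entry, 0 of 13 windows hold one. A match is a string of letters, not a measured binding site.

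Depth and repetition set the precision. Distinct reads, counted once per start and strand, ranged from 1340208 (resting Th2) to 7892944 (stimulated Th17), and the input had 3531867. The 3 unstimulated BRG1 libraries were shallower than the stimulated ones, and 28.5% to 41.4% of their reads repeated a position, against 10.2% to 11.8% in stimulated libraries. Depth, repetition and stimulation therefore move together, and their part in the differences below was not tested. Levels are in RPM, the reads per 1000000 distinct reads of the library, and for whole intervals in RPM per kb. Coordinates of genes in mm9 were not used, so no region below is placed at a promoter, exon or intron. In the GRCm38.p6 gene order the protein-coding neighbours are Mapkapk3 and Hemk1 for Cish, Clec16a and Tnp2 for Socs1, and Tha1 and Pgs1 for Socs3. The genes span 6126, 1729 and 4258 bp in that annotation, far less than the intervals, so a read in an interval need not relate to the named gene.

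Over its whole interval, Cish showed no detectable BRG1 enrichment over input in naive cells and was higher than input in every effector library. The 40 kb held 91 distinct reads for naive, 207 and 215 for resting Th1 and Th2, 925, 848 and 1564 for stimulated Th1, Th2 and Th17, and 161 for input. That is 1.10 RPM per kb in naive and 1.14 in input, a ratio of 0.964 (0.737 to 1.25). The level was 2.86 RPM per kb in resting Th1 and 4.01 in resting Th2, which are 2.51 (2.03 to 3.11) and 3.52 (2.86 to 4.34) times the input. Stimulated Th1 had 5.90, stimulated Th2 4.97 and stimulated Th17 4.95 RPM per kb, 5.18, 4.37 and 4.35 times the input. The order was thus stimulated Th1, then stimulated Th2 and Th17, which did not differ beyond counting error, then resting Th2, resting Th1 and naive.

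**Figure D1:**
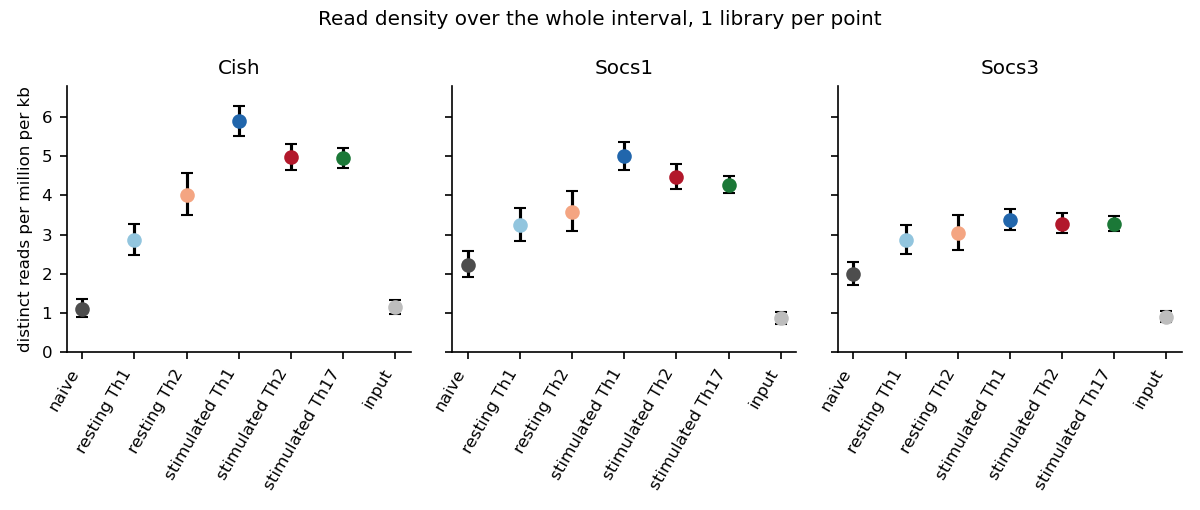
Level in RPM per kb over each interval, with 1 library per point and bars for the 95% exact Poisson interval of its count. Naive lies at the input level for Cish (1.10 against 1.14) and above it for Socs1 and Socs3, and stimulated Th1 has the largest distinct-read value in each panel, for Socs3 within counting error of stimulated Th2.

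Socs1 and Socs3 were already enriched in naive cells. Over Socs1 the reads numbered 185 for naive, 235 and 192 for resting Th1 and Th2, 784, 763 and 1350 for stimulated Th1, Th2 and Th17, and 121 for input. The naive level was 2.23 RPM per kb, 2.61 times the input (2.06 to 3.31), and the highest was 5.0 RPM per kb in stimulated Th1, 5.84 times the input (4.82 to 7.13). Resting Th1 (3.25 RPM per kb) and resting Th2 (3.58) stood between naive and the stimulated libraries. Over Socs3 the reads numbered 185, 233, 183, 596, 629, 1163 and 142 in the same order of libraries. The Socs3 level was 1.98 RPM per kb in naive, 2.22 times the input (1.78 to 2.78), and 2.86 to 3.38 in all effector libraries, resting or stimulated. By distinct reads the effector libraries thus lay closer together over Socs3 than over Cish.

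Set against the whole genome, the intervals were read-rich in the input too. Among 62292 tiles of 40 kb that met the minimum of 10 input reads, 99.9% had a lower input density than Cish, 98.0% than Socs1 and 98.6% than Socs3. Levels over input allow for this. The naive Cish ratio over input exceeded 49.5% of tiles, close to the middle, while the naive Socs1 and Socs3 ratios exceeded 99.7% and 99.0%. In the other 5 libraries every interval exceeded at least 98.9% of tiles. By the rule of at least 1.5-fold with an interval that leaves out 1, each interval was higher than input in every BRG1 library except Cish in naive. Of all tiles the rule called 6.53% for naive, 7.47% and 9.42% for resting Th1 and Th2, and 11.4%, 11.4% and 12.4% for stimulated Th1, Th2 and Th17.

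The signal was not confined to the called regions. Windows were called by a Poisson tail of 1e-05, the expected count being whichever was higher of the genome-wide mean and the input nearby, after each BRG1 library was thinned to 1340208 reads. Adjacent calls were joined, and calls from all 6 libraries were merged into 26340 regions. Of these, 33 overlap the 3 intervals: 13 at Cish covering 4000 bp, 14 at Socs1 covering 3600 bp and 6 at Socs3 covering 1400 bp. They held 17.5% to 48.9% of the BRG1 reads of an interval in any library, and 21.1%, 21.5% and 19.0% of the input reads at Cish, Socs1 and Socs3. The lowest BRG1 share, 17.5% in stimulated Th17 at Socs3, was thus below that of the input. Outside them, reads of stimulated libraries still lay 3.09 to 4.49 times above the input, and naive Cish reads did not (0.846, 0.615 to 1.15). Resting libraries lay 2.15 to 3.05 times above it there, and naive 1.81 times at Socs1 (1.36 to 2.42) and 1.84 times at Socs3 (1.41 to 2.39). Except for naive Cish, reads were thus above the input between the regions as well as in them, in resting and stimulated cells alike. Another random thinning gave 9 regions at Socs1 in place of 14, so weak regions depend on the draw. Without thinning there were 18, 15 and 14 regions at Cish, Socs1 and Socs3. Reads between the regions may therefore include maxima that were not called at the lower depth.

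Stimulated Th1 had the most called windows at each gene. Naive had 0 called windows of 200 at Cish, 2 of 200 at Socs1 and 4 of 225 at Socs3, where the genome-wide rate was 0.0259%. Resting Th1 had 0, 6 and 4 (genome 0.06%), and resting Th2 had 6, 5 and 2 (0.0737%). Stimulated Th1 had 15, 10 and 5 (0.107%), stimulated Th2 7, 7 and 2 (0.0952%) and stimulated Th17 5, 4 and 4 (0.0502%). Of the 33 regions, 14 were called in 1 library (42.4%, against 57.7% of all 26340) and 2 in all 6 (6.06%, against 1.47%). By state, 16 of the 33 were called in stimulated libraries only (48.5%, against 51.0% of all regions), 5 in unstimulated libraries only (15.2%, against 25.0%) and 12 in both (36.4%, against 24.0%). The 2 regions found everywhere belong to Socs1 and Socs3, and none belongs to Cish. Because regions were called on the same reads that are compared below, their values are a description.

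**Figure D2:**
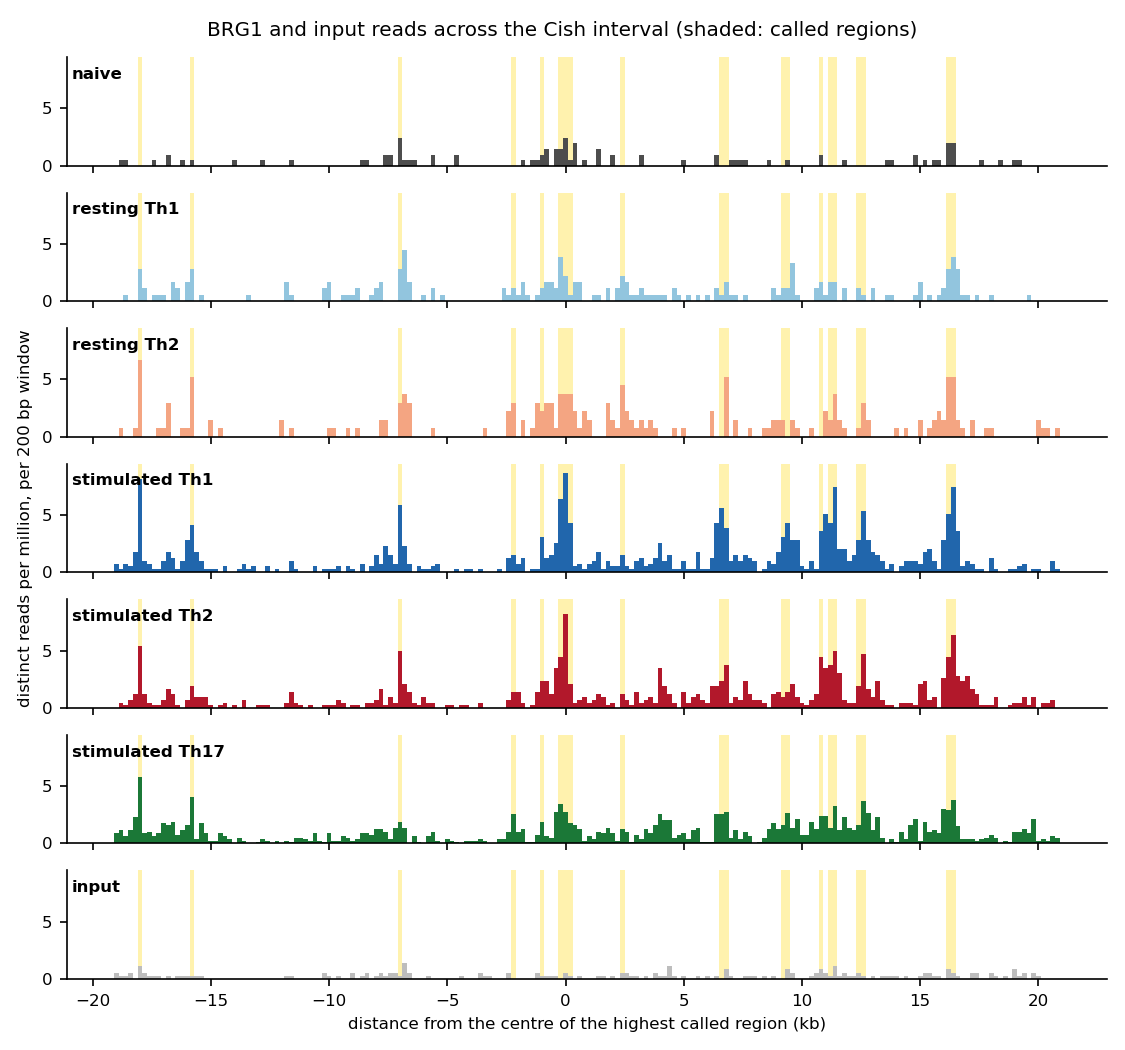
Level in RPM in each 200 bp window across the Cish interval, by distance in kb from the centre of its highest called region, with 1 row per library on 1 common scale and called regions shaded. Stimulated rows show a run of shaded maxima 6.7 to 12.5 kb to the right, where naive has almost no reads. The shaded region at 16.3 kb has 8 naive reads.

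The strongest Cish region lay at chr9:107198801-107199400. It had 9 reads for naive, 12 and 15 for resting Th1 and Th2, 76, 63 and 63 for stimulated Th1, Th2 and Th17, and 3 for input. Its level was 4.34 RPM for naive, 6.64 and 11.2 for resting Th1 and Th2, 19.4, 14.8 and 7.98 for stimulated Th1, Th2 and Th17, and 0.849 for input. Stimulated Th1 was the top library and naive the lowest of the 6. Even so, naive stood 5.11 times above the input in this region (1.28 to 29.4), though the region was not called in naive. The ratio of stimulated to resting Th1 was 2.92 (1.58 to 5.90), and in Th2 it was 1.32 (0.743 to 2.50), which is within counting error.

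A cluster of Cish regions 6.7 to 12.5 kb to the right of that maximum was nearly empty in naive cells. At chr9:107205601-107206000 the reads numbered 0 for naive, 4 and 7 for resting Th1 and Th2, 37, 26 and 42 for stimulated Th1, Th2 and Th17, and 3 for input. Stimulated Th1 was 4.27 times resting Th1 there (1.53 to 16.5). At chr9:107210201-107210600, in the same order of libraries, they numbered 0, 6, 7, 46, 37, 37 and 5, and at chr9:107211401-107211800 they numbered 0, 3, 5, 32, 28, 42 and 3. Stimulated Th1 was 3.54 (1.51 to 10.1) and 4.92 (1.54 to 25.1) times resting Th1 in the last 2. The median of this ratio over all tested regions was 1.50. Divided by it, the ratios of the 3 regions were 2.85, 2.36 and 3.28, so only the last stayed past 3-fold. In Th2 the ratios of stimulated to resting cells, 1.17 (0.494 to 3.19), 1.66 (0.731 to 4.42) and 1.76 (0.671 to 5.84) in the order of the 3 regions, were within counting error. All 3 regions thus had no naive read. A difference with stimulation beyond counting error was seen in Th1 and not detectable in Th2. As all 3 were called in stimulated Th1 and none in resting Th1, the choice of regions favoured this Th1 difference. Whether the subsets differ in it was not tested. A count of 0 in naive allows up to 3 reads, or 1.45 RPM.

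Other Cish regions passed the 3-fold rule in other pairs. At chr9:107208201-107208600, stimulated Th1 had 29 reads, stimulated Th2 10 and stimulated Th17 34, with 1 for naive, 4 and 2 for resting Th1 and Th2 and 3 for input. Stimulated Th1 was 3.15 times stimulated Th2 (1.49 to 7.26) and 3.35 times resting Th1 (1.17 to 13.1) there. The region was called in stimulated Th1 and Th17 only. Divided by the median ratios of all tested regions, these 2 ratios were 2.90 and 2.23, below 3-fold. At chr9:107192001-107192200, stimulated Th17 was the low one, with 15 reads against 23 in stimulated Th1 and 21 in stimulated Th2, 3.09-fold lower in RPM than stimulated Th1 (1.54 to 6.37). Divided by the median ratio of all tested regions, that Th17 to Th1 ratio was 0.559 and not called. That region had 5 reads for naive, 5 and 4 for resting Th1 and Th2 and 1 for input. At chr9:107209801-107210000, a region called in stimulated Th2 alone, that library had 19 reads and resting Th2 0. With resting Th2 set to a floor of 3 reads the ratio was 1.99, and the exact lower bound from the counts was 1.47. The region farthest right, chr9:107215201-107215600, was called in 3 libraries (resting Th2, stimulated Th1 and stimulated Th2), with 8, 12, 14, 49, 46, 53 and 5 reads from naive to input.

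**Figure D3:**
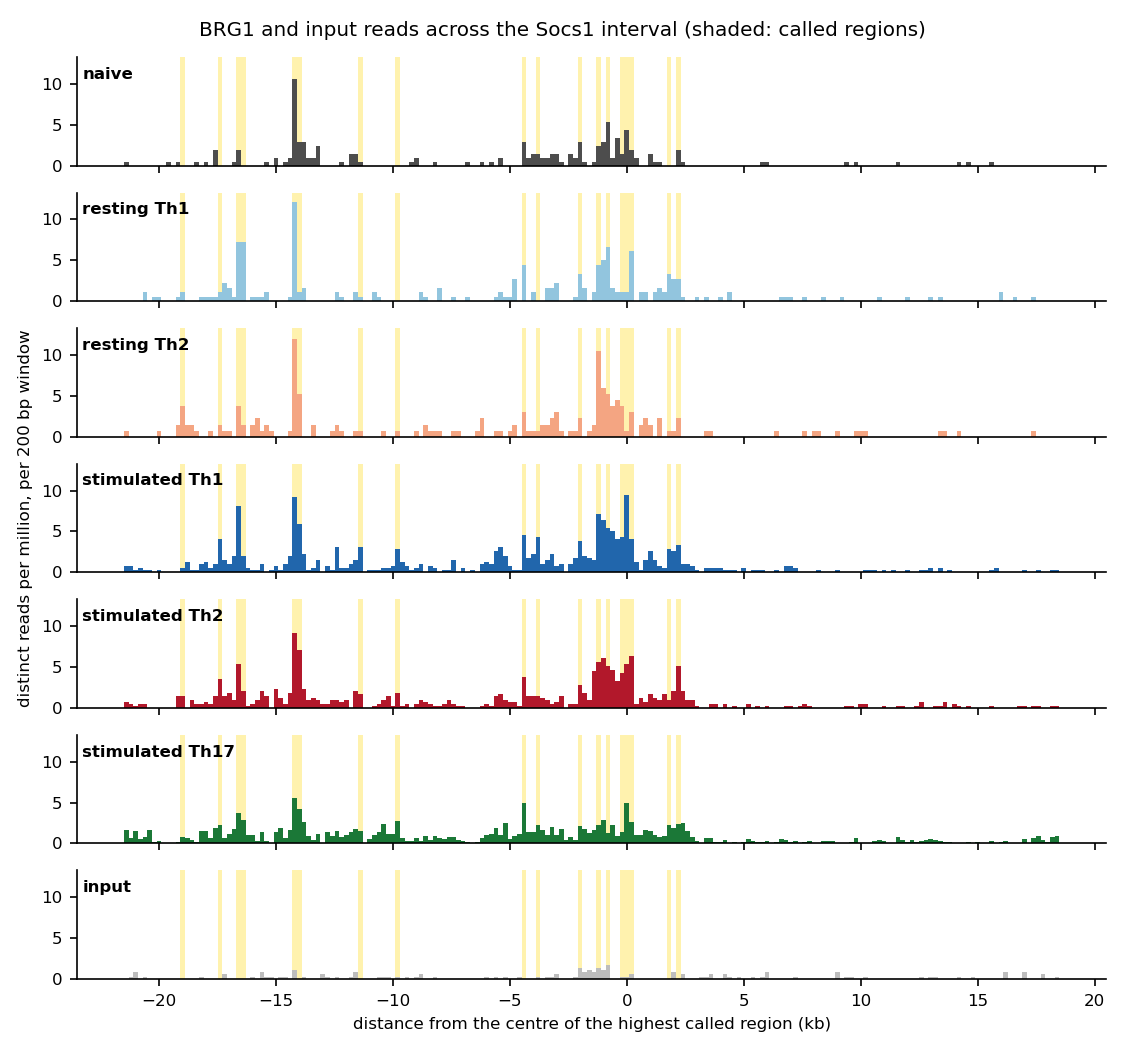
Level in RPM in each 200 bp window across the Socs1 interval, by distance in kb from the centre of its highest called region, with 1 row per library on 1 common scale and called regions shaded. A maximum 14.1 kb to the left stands in every BRG1 row, and the input stays low throughout.

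Socs1 had 1 region that was called in every library and another with larger values in stimulated than in resting Th1 and Th2. The first, chr16:10772201-10772600, had 28 reads for naive, 24 and 23 for resting Th1 and Th2, 59, 69 and 77 for stimulated Th1, Th2 and Th17, and 4 for input. In RPM these were 13.5, 13.3, 17.2, 15.1, 16.2, 9.76 and 1.13, so naive cells already stood 11.9 times above the input. Of the 8 ratios there, 6 had intervals that included 1, and stimulated Th17 was 1.54-fold lower than stimulated Th1 (1.08 to 2.20) and 1.66-fold lower than stimulated Th2 (1.18 to 2.33). The region with the highest level, chr16:10786201-10786800, had 7.72 RPM for naive, 8.30 and 7.46 for resting Th1 and Th2, 17.9, 16.0 and 9.0 for stimulated Th1, Th2 and Th17, and 1.13 for input. Its unstimulated libraries differed by less than counting error, and stimulation gave ratios of 2.15 in Th1 (1.22 to 4.05) and 2.14 in Th2 (1.09 to 4.66). Neither reached 3-fold, and divided by the median ratios of all tested regions they were 1.44 and 1.70.

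Resting Th1 passed the 3-fold rule over naive at another Socs1 region, chr16:10769801-10770200. It had 4 reads for naive, 26 and 7 for resting Th1 and Th2, 40, 32 and 52 for stimulated Th1, Th2 and Th17, and 0 for input. Resting Th1 was 7.45 times naive (2.58 to 29.4) and 2.75 times resting Th2 (1.16 to 7.51). After stimulation the Th1 to Th2 ratio was 1.36 (0.833 to 2.24), within counting error. Resting Th1 had 14.4 RPM, beside 10.2, 7.51 and 6.59 in stimulated Th1, Th2 and Th17 and 5.22 in resting Th2.

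Near the right-hand maximum of Socs1, 2 regions were called lower in stimulated Th17 than in stimulated Th1. These are 15.4% of the 13 Socs1 regions tested, near the 16.3% of all regions, and after division by the median ratio none was called. At chr16:10785201-10785400 the levels were 2.41 RPM for naive, 4.42 and 10.4 for resting Th1 and Th2, 7.15, 5.63 and 2.28 for stimulated Th1, Th2 and Th17, and 1.42 for input. Resting Th2 was 4.33 times naive (1.47 to 15.4), and stimulated Th17 was 3.13-fold lower than stimulated Th1 (1.67 to 6.02). The region was called in resting Th2 alone, so its choice favoured the first ratio. Divided by the median ratio of all tested regions, the first ratio was 2.56, below 3-fold. At chr16:10785601-10785800, where the input had 6 reads, stimulated Th17 had 10 reads against 21 in stimulated Th1 and 22 in stimulated Th2. It was 4.23-fold (1.91 to 10.1) and 4.07-fold (1.85 to 9.64) lower in RPM, and at 0.746 times the input no enrichment was detectable. Stimulated Th1 and Th2 had 3.16 and 3.04 times the input there.

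Small Socs1 regions at chr16:10776601-10776800 and chr16:10782601-10782800 had no resting Th1 read and 11 and 17 stimulated Th1 reads. Set against the floor of 3 reads these are 1.69-fold and 2.62-fold higher, and the exact lower bounds from the counts are 1.16 and 1.90. At the second of them stimulated Th1 was also 3.08 times stimulated Th2 (1.16 to 9.55). Divided by the median ratio of all tested regions, that ratio was 2.83, below 3-fold. Both regions were called in stimulated Th1 alone, so their choice favoured that library in these comparisons. Input had 1 read in each.

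**Figure D4:**
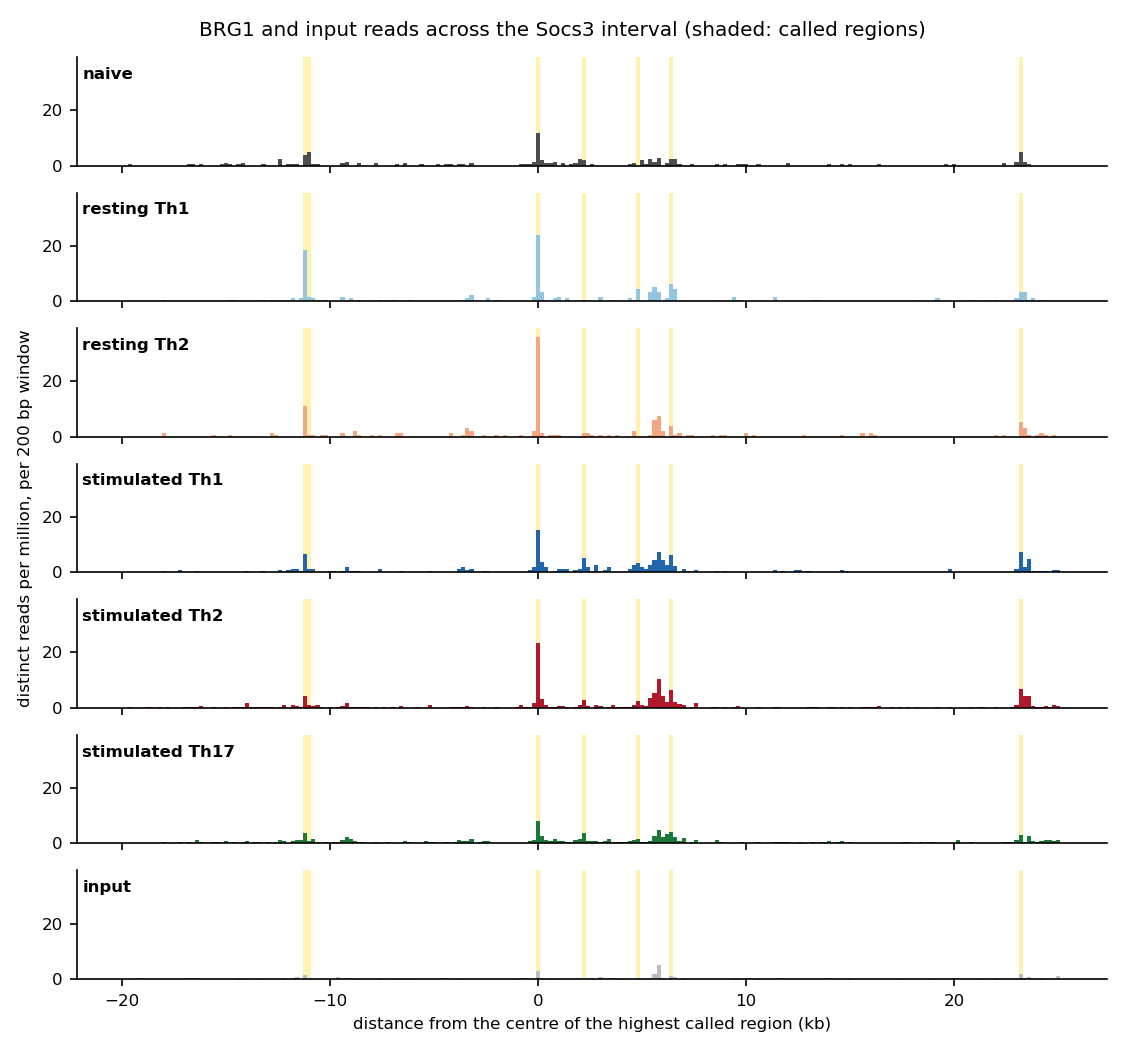
Level in RPM in each 200 bp window across the Socs3 interval, by distance in kb from the centre of its highest called region, with 1 row per library on 1 common scale and called regions shaded. The central window and one 11.1 kb to the left are tallest in resting cells, and the unshaded rise near 6 kb is also seen in the input.

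Socs3 had 2 narrow maxima whose distinct-read values were larger in resting than in stimulated cells of the same subset, by less than the 3-fold of the call rule. The taller, chr11:117824801-117825000, had 24 reads for naive, 43 and 48 for resting Th1 and Th2, 59, 99 and 64 for stimulated Th1, Th2 and Th17, and 10 for input. In RPM these were 11.6, 23.8, 35.8, 15.1, 23.2, 8.11 and 2.83, the largest value of any region in the 3 intervals being that of resting Th2. Resting Th2 was 3.09 times naive (1.86 to 5.28), or 1.83 after division by the median ratio of all tested regions. Stimulation gave ratios of 0.633 in Th1 (0.420 to 0.961) and 0.649 in Th2 (0.455 to 0.936). Stimulated Th2 had more than stimulated Th1, whose ratio to it was 0.648 (0.462 to 0.904), and stimulated Th17 was 2.86-fold lower than stimulated Th2 (2.07 to 3.99).

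Counting each position once hid most of the reads at that Socs3 maximum. With all reads kept, it had 45 reads for naive, 161 and 393 for resting Th1 and Th2, 395, 775 and 244 for stimulated Th1, Th2 and Th17, and 15 for input. The repeated share was 46.7% (31.7 to 62.1) in naive and 33.3% (11.8 to 61.6) in input, and 73.3% to 87.8% in the effector libraries, against 31.5% to 44.7% over all regions of those libraries. By all reads, only 7 of the 26340 regions had a higher RPM in resting Th2, and 16 in stimulated Th2. Resting Th2 was then 14.6 times naive (10.7 to 20.3), and the stimulation ratio in Th1 changed sides, from 0.633 to 1.40 (1.17 to 1.70). Whether the repeats are PCR copies or separate molecules that share an end was not tested.

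The other Socs3 maximum was chr11:117813601-117814000. It had 18 reads for naive, 36 and 16 for resting Th1 and Th2, 30, 22 and 37 for stimulated Th1, Th2 and Th17, and 5 for input. Resting Th1 was highest at 19.9 RPM, 2.29 times naive (1.27 to 4.29). Stimulated cells were 2.60-fold lower than resting in Th1 (1.56 to 4.37) and 2.31-fold lower in Th2 (1.14 to 4.61), below the 3-fold of the rule. With all reads resting Th1 had 57 there and stimulated Th1 38. A smaller region at chr11:117827001-117827200 went the other way, from 1 read at rest to 20 after stimulation in Th1, with 0 for input, a ratio of 9.23 (1.48 to 383). At the right edge, chr11:117848001-117848200 had 10, 6, 7, 29, 29, 24 and 7 reads from naive to input, and no ratio there reached 3-fold.

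**Figure D5:**
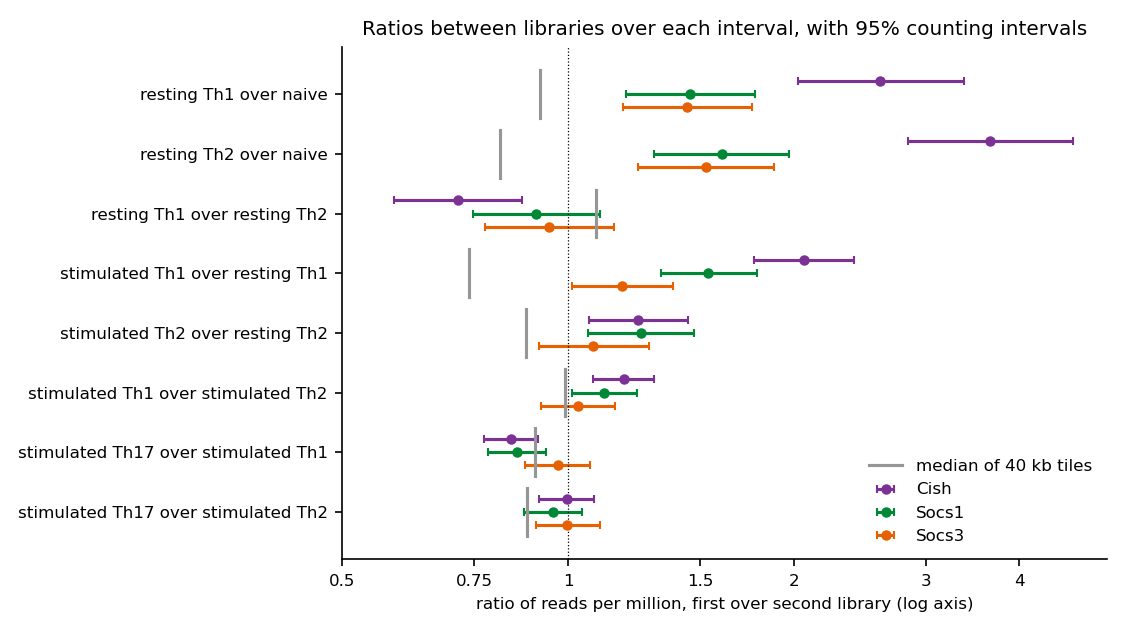
Ratio of distinct-read RPM over each whole interval for 8 pairs of libraries, on a log axis, with 95% exact counting intervals and grey ticks for the median ratio of all 40 kb tiles tested. By these distinct reads Cish has the largest ratios of resting to naive cells, while with all reads kept Socs3 reaches 3.55 in resting Th2 beside 3.58 for Cish.

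Differentiation was compared as resting over naive cells. Over the whole interval, Cish was 2.61-fold higher in resting Th1 (2.03 to 3.37) and 3.65-fold higher in resting Th2 (2.85 to 4.72). Socs1 was 1.46-fold (1.20 to 1.78) and 1.60-fold (1.30 to 1.97) higher, and Socs3 1.44-fold (1.19 to 1.76) and 1.53-fold (1.24 to 1.89). By the 1.5-fold rule Cish was called in both subsets, and Socs1 and Socs3 in Th2 alone, with values just on either side of 1.5. The rule called 4.58% of tiles higher and 5.27% lower in resting Th1 over naive, and 7.60% higher and 10.7% lower in resting Th2 over naive. With all reads kept, Socs3 was 2.12 in resting Th1 over naive and 3.55 in resting Th2 over naive, and without its repetitive region the distinct-read ratio for Th2 was 1.30 and no longer called. Divided by the median ratio of all tested regions, which was 0.68 and 0.76 on the log2 scale, Cish was 1.62 and 2.16 while Socs1 and Socs3 in Th2 fell on the other side of 1, at 0.948 and 0.903. Both comparisons share the naive library.

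A comparison of genes within each library needs no scale between libraries. Taking the ratio of Cish reads to Socs1 reads within each library first, resting Th1 over naive was 1.79 (1.29 to 2.48) and resting Th2 over naive 2.27 (1.64 to 3.17). Against Socs3 the values were 1.80 (1.31 to 2.50) and 2.39 (1.72 to 3.33). Socs1 against Socs3 gave 1.01 (0.761 to 1.34) and 1.05 (0.779 to 1.41). These ratios, chosen after the data were examined, show more change at Cish than at either other gene by distinct reads. Resting Th2 over naive was 3.58 for Cish and 3.55 for Socs3 with all reads kept, so the difference from Socs3 was not seen there. Of the 24 computed, 8 had an interval that left out 1, and no correction for their number was made.

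Few single regions passed the 3-fold rule with differentiation. Of 14 regions tested (at least 10 reads in the pair) for resting Th1 over naive, 1 was higher and 0 lower, against 15.8% and 0.733% of all regions. For resting Th2 over naive, 2 of 12 were higher and 0 lower, against 20.5% and 1.08%. At these depths most Cish regions had too few reads to be tested, 3 and 2 of 13 passing the minimum. The median ratio of tested members was 1.53 and 1.46, near the 1.60 and 1.69 of all regions.

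No whole interval passed the 1.5-fold rule between resting Th1 and Th2. Cish was 1.40-fold lower in resting Th1 (1.15 to 1.70), under the 1.5-fold of the rule. All 7 Cish regions tested had a ratio of Th1 to Th2 below 1, from 0.412 to 0.635, but each interval included 1. They come from the same pair of libraries and are not independent support. Resting Th2 had 6 called windows at Cish and resting Th1 had 0, so the choice of regions favoured Th2. Socs1 (0.907, 0.747 to 1.10) and Socs3 (0.944, 0.774 to 1.15) did not differ beyond counting error by distinct reads. The Socs3 ratio was 0.597 with all reads kept, and 0.343 (0.283 to 0.413) in its repetitive region. Across the genome 4.80% of tiles were higher and 4.03% lower. No member region of 17 passed the 3-fold rule, which called 2.10% of all regions higher and 4.86% lower.

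Activation was compared as stimulated over resting cells, and Th1 cells showed the larger ratios, with intervals that overlapped those of Th2 for Socs1 and Socs3. In Th1, Cish was 2.06-fold (1.77 to 2.41) and Socs1 1.54-fold (1.33 to 1.79) higher after stimulation, and Socs3 1.18-fold (1.01 to 1.38). The first 2 were called, in a comparison where 8.93% of tiles were higher and 24.0% lower and the median tile had a ratio of 0.738. Divided by the median ratio of all tested regions, both fell under 1.5-fold, Cish at 1.37 and Socs1 at 1.03. In Th2 the ratios were 1.24 for Cish (1.07 to 1.45), 1.25 for Socs1 (1.07 to 1.47) and 1.08 for Socs3 (0.915 to 1.28), none called, where 6.35% of tiles were higher and 9.56% lower. The median ratio of all tested regions was 1.50 in Th1 and 1.26 in Th2. Division by it gave 0.986 for Cish and 0.993 for Socs1 in Th2, and for Socs3 0.787 in Th1 and 0.859 in Th2. Within libraries, the Th1 ratio of Cish exceeded that of Socs3 1.75-fold (1.40 to 2.18) and that of Socs1 1.34-fold (1.08 to 1.66). No such difference exceeded counting error in Th2.

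Region by region, activation calls were on the higher side only. In Th1, 7 of 31 tested regions were higher and 0 lower, 4 of the 7 at Cish, 2 at Socs1 and 1 at Socs3. All regions gave 23.9% higher and 4.76% lower, so the members' 22.6% is near the background. In Th2, 1 of 29 was higher, at Cish, and 0 lower, against 14.3% and 5.09%. The median ratio was 2.84 over the 12 tested Cish regions in Th1, 1.20 over 13 at Socs1 and 0.880 over 6 at Socs3, beside 1.50 over all regions. All of these called ratios have lower bounds under 3-fold, including the 3 calls against a count of 0 (2 at Socs1 in Th1 and 1 at Cish in Th2).

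Among stimulated cells, no whole interval passed the 1.5-fold rule. Th1 over Th2 was 1.19 for Cish (1.08 to 1.30), 1.12 for Socs1 (1.01 to 1.24) and 1.03 for Socs3 (0.920 to 1.16), none reaching 1.5-fold, while 2.66% of tiles were higher and 5.44% lower. Th17 over Th1 was 0.839 (0.773 to 0.911), 0.855 (0.782 to 0.935) and 0.969 (0.877 to 1.07), against 9.52% of tiles higher and 14.8% lower. Th17 over Th2 was 0.996 (0.915 to 1.08), 0.955 (0.874 to 1.05) and 0.998 (0.905 to 1.10), against 10.5% and 19.1%. Divided by the median ratio of all tested regions, the Th17 ratios were above 1, between 1.45 and 1.67. With all reads kept, the Socs3 ratios were 0.794 for Th1 over Th2, 0.78 for Th17 over Th1 and 0.619 for Th17 over Th2. Summed over its regions, Cish had 54.2 RPM in stimulated Th17, 96.5 in stimulated Th1 and 70.9 in stimulated Th2. Socs1 had 50.3, 85.0 and 73.0 RPM and Socs3 25.8, 44.7 and 46.9 in the same order. Th17 had the lowest sum of the stimulated libraries at each gene, and the median ratio over all regions was also below 1 in Th17, 0.579 times stimulated Th1 and 0.623 times stimulated Th2.

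Few single regions differed between stimulated subsets. For stimulated Th1 over Th2, 2 of 32 regions were higher and 0 lower, against 2.52% and 3.73% of all regions. For Th17 over Th1, 3 of 32 were lower and 0 higher, against 16.3% lower and 3.55% higher. For Th17 over Th2, 1 of 33 was lower and 0 higher, against 17.4% and 3.39%. Ratios below 1 numbered 30 of 32 and 23 of 33 in the Th17 comparisons, which share the Th17 library.

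The most alike regions elsewhere were found by Pearson's r of log2 (RPM + 0.5) over the 6 BRG1 libraries, among 11647 regions with at least 60 reads. For the strongest Cish region they were chr11:74709801-74710200 (r = 0.998) and chr3:135382201-135382400 (0.997), and 7.26% of the regions searched had r above 0.9. For the highest Socs1 region they were chr11:94896401-94896600 (0.996) and chr11:70577601-70578200 (0.995). The first of these had 0 RPM in the unstimulated libraries and 9.44, 5.87 and 0.253 in stimulated Th1, Th2 and Th17. A high r therefore does not mean alike levels. For the Socs3 maximum the most alike regions were chr16:17209201-17209400 (0.998) and chr10:58854601-58855000 (0.994). With 6 libraries and 11647 regions such values are a description only, and the libraries differ in depth in the same way for every region.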

How the data were processed

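For each library the authors deposited aligned reads as chromosome, start, end and strand, with a score of 0 in every line, so every count and RPM value was computed here. Every read is 34 bases long. The build is mm9, per the submitters' processing notes. No source used here names the aligner or its settings. Per the labels' protocols, crosslinked chromatin was cut with micrococcal nuclease and sonication, amplified over 18 cycles and selected at 250 to 300 bases.

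Reads on chromosome Y were left out, repeats of a start and strand were collapsed, and 5′ ends were shifted by 75 bp. Windows of 200 bp were called genome-wide as stated in the report, against input in the surrounding 1, 5 and 10 kb, and joined over gaps of 1 window. Ratios carry conditional exact (Clopper-Pearson) 95% intervals, and calls need at least 10 reads in the pair. Named regions are the 3 highest of each interval and every region called in a pair. The steps were tested on simulated data (Python 3.11.15, numpy 2.4.6, scipy 1.17.1). The members, lists and rules were chosen with earlier results of these data known. Alternatives covered repeats, depth, scaling, shift, window, threshold and interval length.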

Additional observations from a re-analysis of the deposited data

Results flagged for a closer look

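Reads at repeated positions, which the distinct counts leave out, stood far above the input at 1 Socs3 region, chr11:117824801-117825000. They numbered 118 and 345 for resting Th1 and Th2 and 336, 676 and 180 for stimulated Th1, Th2 and Th17, against 21 for naive and 5 for input. The single most used position held 20 and 68 reads for resting Th1 and Th2, 59, 131 and 26 for stimulated Th1, Th2 and Th17, 7 for naive and 3 for input. Distinct reads used 99 of 400 possible positions in stimulated Th2.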

How the results depend on the processing

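Of the ratios over whole intervals, all kept within their counting interval when 5′ ends were not shifted or intervals were shortened by 5 kb at each end. Dividing by the median ratio of tested regions, a scale set by regions and not by intervals, moved most of them. In the order resting Th1 over naive, resting Th2 over naive, stimulated over resting Th1, stimulated over resting Th2, Th17 over Th1 and Th17 over Th2, Cish was then 1.62, 2.16, 1.37, 0.986, 1.45 and 1.60. Socs1 was 0.907, 0.948, 1.03, 0.993, 1.48 and 1.53, and Socs3 0.90, 0.903, 0.787, 0.859, 1.67 and 1.60. The resting Th2 over naive ratios of Socs1 and Socs3 thus fell to just below 1 and were no longer called in either direction. Cish stayed past 1.5-fold in resting Th1 and Th2 over naive and was no longer past it in stimulated over resting Th1. Scaling by 10 kb bins without regions gave 2.44, 1.82 and 1.40 for stimulated over resting Th1 at Cish, Socs1 and Socs3. With all reads kept, Socs3 moved to 2.12 and 3.55 for resting Th1 and Th2 over naive, 0.597 for resting Th1 over Th2, 0.794 for stimulated Th1 over Th2, and 0.78 and 0.619 for Th17 over Th1 and Th2. At equal depth Socs1 moved to 0.698 and 0.862 and Socs3 to 1.11 in the Th17 comparisons, and without its repetitive region, an alternative chosen after seeing the data, Socs3 moved to 1.12 for Th17 over Th2.

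Counts of called regions depended on the rule. With a tail of 1e-07 Cish had 8 and Socs1 7, with 0.001 Socs3 had 13, with all distinct reads it had 14, and Socs1 had 8 with windows of 400 bp and 9 with another seed for thinning. At 2-fold, higher regions numbered 3 and 4 for resting Th1 and Th2 over naive, 1 for resting Th1 over Th2 and 2 for activation in Th2, and lower regions numbered 1 and 1 for activation in Th1 and Th2 and 6 and 6 for Th17 over Th1 and Th2. With all reads kept, higher regions numbered 4 and 5 for resting Th1 and Th2 over naive, 13 and 3 for activation in Th1 and Th2, and lower regions 2 for activation in Th2 and 2 for Th17 over Th2. Relative to the median ratio, higher regions numbered 0 for resting Th2 over naive, 1 for resting Th1 over Th2, 2 for activation in Th1, 0 for stimulated Th1 over Th2 and 2 for Th17 over Th2, and lower ones 1 and 2 for activation in Th1 and Th2 and 0 and 0 in the Th17 comparisons. Scaling by bins gave 2 lower for Th17 over Th2. The cause of these shifts was not tested. No paired analysis was possible because each group has 1 library. Depth limits the unstimulated libraries most: 3 reads, the floor set for a count of 0, are 2.24 RPM in resting Th2 and 0.38 in stimulated Th17.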

Other observations

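The window with the most input reads in the 3 intervals lay at Socs3, chr11:117830601-117830800, with 18 input reads, and was called in no BRG1 library. It had 6 reads for naive, 6 and 10 for resting Th1 and Th2, and 28, 44 and 39 for stimulated Th1, Th2 and Th17. Only stimulated Th2 exceeded the input beyond counting error, 2.03-fold (1.15 to 3.72). The next highest input window of another interval, chr16:10785601-10785800 at Socs1, had 6 input reads.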
